A study of Mus musculus with 4 samples.

Results

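Schwann cells wrap the axons that run through a muscle, and the RNA of these cells makes up a small part of the RNA of the whole tissue. Their transcripts were followed here through 8 genes chosen by name: the myelin genes Mbp, Pmp22, Prx and Pllp, the transcription factor gene Sox10, the calcium-binding protein gene S100b, and the surface protein genes Ngfr and Ncam1. All 8 were found among the 32868 named genes of each library, and each was held in 1 row with no further copy. The rule uses names and no measured value, but the names were proposed with earlier results of these data known.

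In a peripheral nerve, myelinating Schwann cells form a sheath of compacted membrane around single large axons, and nonmyelinating Schwann cells enclose bundles of small axons. SOX10 is needed at every stage of the lineage and, with EGR2, switches on the myelin genes. PMP22 and MBP help to build compact peripheral myelin, and periaxin, the product of Prx, links the outer Schwann cell membrane to the basal lamina through DRP2 and dystroglycan. The low-affinity neurotrophin receptor NGFR and the adhesion molecule NCAM1 are typical of immature and nonmyelinating Schwann cells and decline in cells that myelinate. Several members are also used elsewhere: Pmp22 in fibroblasts and epithelia, S100b in adipocytes, Ncam1 in denervated muscle fibres and satellite cells, and Ngfr in myogenic cells.

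The samples were whole tibialis anterior, a muscle at the front of the shin, from C57BL/6 mice at postnatal day 21. There were 2 libraries of each genotype: Nf1flox/+/Myf5+, called Het, with 1 floxed Nf1 allele, and Nf1flox/flox/Myf5+, called Nf1-KO, with both alleles floxed. Both groups carry Myf5+ and at least 1 floxed allele, and no wild-type group was measured alongside. The labels do not say what Myf5+ stands for; Myf5 itself is a gene of muscle precursors, whereas Schwann cells come from the neural crest. The labels do not say whether the libraries of a group came from separate animals, so p-values measure the spread between these libraries, which may be technical.

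The deposited values are read as RPKM (reads per kilobase of gene, scaled to library depth), so that levels can be compared between genes as well as between libraries; the read depth is not stated. Muscle RNA dominated each library: Acta1, skeletal muscle actin, held 12305 to 15930 RPKM. Nf1, the targeted gene, was 1.09 and 1.01 RPKM in Het and 0.89 and 0.85 RPKM in Nf1-KO. This is a log2 fold change of -0.18 (SE 0.057, limma adjusted p 0.0407), and it lost this call without any 1 of the 4 libraries, where its limma adjusted p ran from 0.0612 to 0.162. Replicates were close, with a median coefficient of variation of 2.95% in Het and 2.73% in Nf1-KO among tested genes with a mean of at least 1 RPKM, and of 9.25% and 7.77% among those under 1 RPKM. In Het, 7 of the 8 members lie under 1 RPKM. Of 10690 genes tested with limma on log2(RPKM + 1), 24.9% were higher and 25.4% lower in Nf1-KO at an adjusted p under 0.05, 50.3% in all. Without scaling between libraries 3760 were higher and 1883 lower, against 2660 and 2712, and the median log2 fold change of all tested genes was 0.07 in place of 0.00.

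The start regions of 3 members that were higher in Nf1-KO are shown because they let the reader look for letters that the regulators of myelin genes bind. Each is the sequence of 250 bases before an annotated start in RefSeq (GRCm38.p6, plus strand), matched by symbol. Windows of 5 members were used, and the 3 shown have the largest log2 fold changes among these. They lie at chr11:63128732-63128981 for the first of 4 annotated starts of Pmp22, at chr7:27499074-27499323 for Prx and at chr10:76253586-76253835 for S100b, and no annotated exon of GENCODE M21 falls within them. Capitals mark CCAAT or its reverse complement ATTGG.
Pmp22: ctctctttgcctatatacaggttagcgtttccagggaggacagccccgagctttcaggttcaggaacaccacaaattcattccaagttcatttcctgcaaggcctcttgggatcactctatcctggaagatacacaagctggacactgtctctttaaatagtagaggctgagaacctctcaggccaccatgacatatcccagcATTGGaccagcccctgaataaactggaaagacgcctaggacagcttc
Prx: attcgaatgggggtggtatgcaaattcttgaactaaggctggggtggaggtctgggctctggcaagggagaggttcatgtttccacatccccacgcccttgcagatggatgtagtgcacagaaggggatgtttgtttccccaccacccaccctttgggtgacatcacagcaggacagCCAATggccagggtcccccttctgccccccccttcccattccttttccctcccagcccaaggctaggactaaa
S100b: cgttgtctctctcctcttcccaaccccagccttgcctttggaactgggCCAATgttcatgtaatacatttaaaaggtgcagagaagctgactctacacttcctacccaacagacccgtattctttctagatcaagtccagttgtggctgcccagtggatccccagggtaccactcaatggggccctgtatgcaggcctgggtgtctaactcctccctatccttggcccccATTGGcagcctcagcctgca
None of the 3 windows, nor those of the other Pmp22 starts, Pllp and Ngfr, held ACAAAG, the core that SOX factors bind, or GTGGGCG, the core that EGR factors bind, on either strand. Of 32817 promoters of the same length, 16.5% held the first and 7.02% the second. CCAAT, a general promoter element that was looked for after the sequences had been read, was present once for Pmp22 and Prx and in 2 places for S100b, and in 33.8% of all promoters. These matches describe letters in these windows only.

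The myelin genes Pmp22, Mbp and Prx were higher in Nf1-KO muscle, with ratios of group means from 1.98 to 2.04, while Pllp was not called. Pmp22, a tetraspan protein of compact myelin, was the most abundant member, at 5.2 and 5.55 RPKM in Het and 10.53 and 10.72 RPKM in Nf1-KO. The groups were far apart, and both Nf1-KO libraries lay close together. Its group means of 5.38 ± 0.247 and 10.6 ± 0.134 RPKM (SD, n = 2) stand in a ratio of 1.98, and its log2 fold change was 0.78 (SE 0.044, limma adjusted p 3.53e-05).

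Mbp, the basic protein that holds the cytoplasmic faces of myelin together, was 0.87 and 0.94 RPKM in Het and 1.76 and 1.92 RPKM in Nf1-KO. Both Nf1-KO libraries lay above both Het libraries, with a ratio of group means of 2.03. The log2 fold change on log2(RPKM + 1) was 0.52 (SE 0.06, limma adjusted p 0.000678); adding 1 makes changes of low genes look smaller than the ratio of means does. The row does not separate the classic myelin transcripts from the longer golli transcripts of the same gene, which are made outside myelin too.

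Prx, the periaxin gene, was at the same level as Mbp, at 0.95 and 0.86 RPKM in Het and 1.96 and 1.74 RPKM in Nf1-KO. The groups did not overlap, and the ratio of group means was 2.04. Its log2 fold change was 0.53 (SE 0.065, limma adjusted p 0.000936). An exon of Prx overlaps one of Gm15541 on the opposite strand, and strand use in the counting is not given in the sources used here.

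Pllp, plasmolipin, a further tetraspan protein of myelin membranes, did not pass the test. It was 0.35 and 0.55 RPKM in Het and 0.51 and 0.61 RPKM in Nf1-KO. The groups overlapped, since the second Het library lay between both Nf1-KO libraries. The log2 fold change was 0.08 with a 95% interval from -0.13 to 0.28 (limma adjusted p 0.483), and without the first Het library it was -0.03. Exons of Pllp overlap an annotated gene on the opposite strand, Gm45767.

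The lineage genes Sox10 and S100b were higher, with weaker calls. Sox10, the master transcription factor gene of the lineage, was 0.24 and 0.33 RPKM in Het and 0.55 and 0.51 RPKM in Nf1-KO, a ratio of group means of 1.86. Its log2 fold change was 0.23 (SE 0.064, limma adjusted p 0.0267). S100b, a marker of mature Schwann cells, was 0.38 and 0.26 RPKM in Het and 0.88 and 0.61 RPKM in Nf1-KO, a ratio of 2.33. Its log2 fold change was 0.37 (SE 0.092, limma adjusted p 0.0171). The groups of both genes did not overlap.

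Both genes passed the filter of 0.5 RPKM in 2 libraries only through the Nf1-KO libraries, so that entry into the test already favoured a difference. With a filter on the mean of all 4 libraries (at least 0.25 RPKM), chosen after the data were seen, the limma adjusted p was 0.029 for Sox10 and 0.021 for S100b. With no filter it was 0.0535 and 0.0857, and both calls were lost. Sox10 also lost its call without the first Het library (0.0933), the first Nf1-KO library (0.106) or the second Nf1-KO library (0.0633), and S100b without the second Het library (0.0825) or the first Nf1-KO library (0.067).

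The surface proteins typical of immature and nonmyelinating Schwann cells stayed outside the calls. Ncam1, which is also a marker of denervated fibres, was 0.5 and 0.53 RPKM in Het and 0.52 and 0.56 RPKM in Nf1-KO. The first Nf1-KO library lay between the Het libraries. The log2 fold change was -0.01 with a 95% interval from -0.15 to 0.13 (limma adjusted p 0.909), and its sign turned to 0.02 with values as deposited. Exons of Ncam1 overlap those of Gm11149 on the opposite strand.

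Ngfr, the p75 neurotrophin receptor, was 0.38 and 0.39 RPKM in Het and 0.46 and 0.39 RPKM in Nf1-KO, below the filter, so it was not tested in the fit above. The second library of each genotype held the same value. With the filter on the mean, its log2 fold change was 0.01 (SE 0.057, limma adjusted p 0.874).

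**Figure D1:**
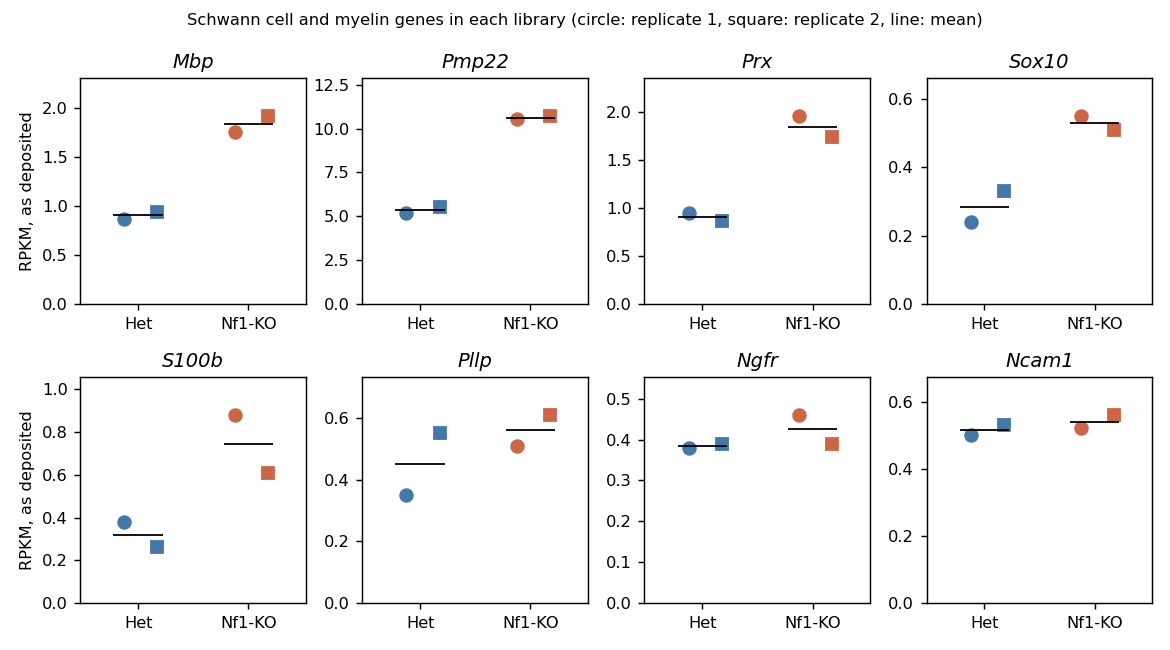
Deposited RPKM (vertical axes, each starting at 0) of the 8 members in each library. Circles are the first and squares the second replicate of Het (blue) and Nf1-KO (red), and lines are group means (n = 2). Mbp, Pmp22, Prx, Sox10 and S100b have both Nf1-KO points above both Het points, while the groups overlap for Pllp, Ngfr and Ncam1.

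Of the 8 members, 7 were tested, 5 were called higher and 0 lower, where 24.9% of all tested genes were called higher. Both Nf1-KO values lay above both Het values in 5 of the 8, and below in none, where this held for 49.8% and 27.4% of all tested genes, so separation alone is common here. With the filter on the mean all 8 were tested and again 5 called higher, against 22.9% of all genes tested in that way. At an adjusted p under 0.01, or without the first Nf1-KO library, 3 were called higher. Sox10 and S100b, which entered through their Nf1-KO values, are among the 7, so this count is a description. Of all tested genes, 1.83% had a log2 fold change at least as large as that of Pmp22, 4.76% as that of Mbp and 4.69% as that of Prx.

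The authors' deposited table, which rests on read counts, called 4 of the 8 members higher. In the authors' deposited table the log2 fold changes were 0.87 for Pmp22 (adjusted p 1.45e-17), 0.91 for Mbp (1.55e-09) and 0.93 for Prx (4.12e-08). For S100b the authors' deposited table gave 1.14 with an adjusted p of 0.0466, and for Sox10 0.76 with 0.144, which is no call. Pllp (0.20, adjusted p 0.802), Ngfr (0.02, 0.974) and Ncam1 (-0.03, 0.925) were not called in the authors' deposited table either. The authors' deposited table called 15.0% of its 13985 rows higher and 31.6% in either direction. The mean normalized counts in the authors' deposited table show what each value rests on: 882 for Pmp22, 433 for Mbp, 348 for Prx and 264 for Ncam1, but 65.2 for Ngfr, 52.4 for Sox10, 44.9 for Pllp and 41.4 for S100b.

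The levels of the members, compared per length in RPKM, were ordered as follows in Het muscle. Pmp22 stood alone at 5.2 to 5.55 RPKM. Mbp and Prx came next, and their ranges of 0.87 to 0.94 and 0.86 to 0.95 RPKM overlapped. Ncam1 followed at 0.5 to 0.53 RPKM, and its range lay inside that of Pllp. Ngfr, S100b and Sox10 were lowest, where the range of Ngfr touched that of S100b and lay inside that of Pllp, and S100b overlapped Sox10. In Nf1-KO muscle Pmp22, Mbp and Prx kept this order, while S100b moved from below Ncam1 in both Het libraries to above it in both Nf1-KO libraries.

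Set against Pmp22 in the same library, the members divided into those that kept their proportion and those that did not. Mbp was 16.7% and 16.9% of the Pmp22 level in Het and 16.7% and 17.9% in Nf1-KO. Prx was 18.3% and 15.5% of Pmp22 in Het, beside 18.6% and 16.2% in Nf1-KO, and the genotypes overlapped for both genes. Sox10 ran from 4.62% to 5.95% and S100b from 4.68% to 8.36% of Pmp22 over the 4 libraries, also with overlap.

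The remaining members took a smaller share beside Pmp22 in Nf1-KO. Ncam1 was 9.62% and 9.55% of Pmp22 in Het and 4.94% and 5.22% in Nf1-KO. Ngfr was 7.31% and 7.03% in Het and 4.37% and 3.64% in Nf1-KO. Pllp was 6.73% and 9.91% in Het and 4.84% and 5.69% in Nf1-KO. These ratios describe unequal change within a library and were not tested, since with 2 libraries against 2 an exact permutation test cannot go below 0.333. Ngfr was 158% and 118% of the Sox10 level in Het and 83.6% and 76.5% in Nf1-KO.

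**Figure D2:**
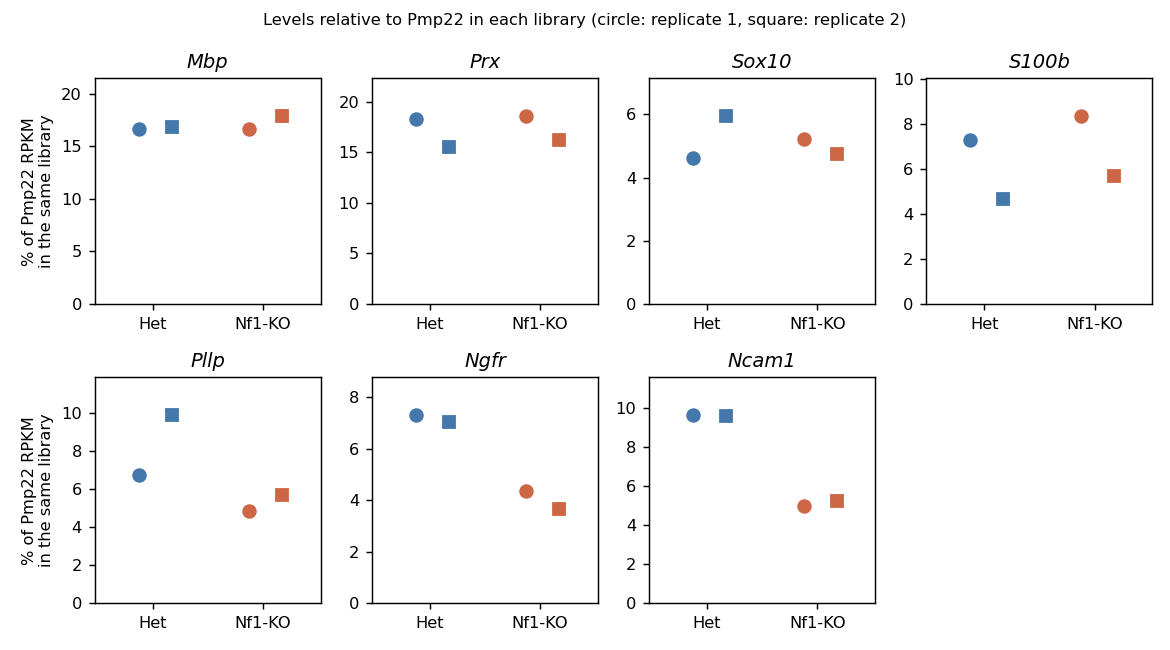
Level of 7 members as a percentage of the Pmp22 RPKM in the same library (vertical axes start at 0), with circles for the first and squares for the second replicate of Het (blue) and Nf1-KO (red). Mbp, Prx, Sox10 and S100b overlap between genotypes, and Pllp, Ngfr and Ncam1 are lower in both Nf1-KO libraries.

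Other genes of peripheral myelin were higher in part. Of 25 such genes, 20 had both Nf1-KO libraries above both Het libraries and 1 had both below, where 37.5% of all named genes with any value had both above. Only 12 of the 25 passed the filter, of which 8 were called higher and 1 lower, beside 24.9% and 25.4% of all tested genes. Of the 8, 3 passed it only through the Nf1-KO libraries, Mal and Drp2 among them. With the filter on the mean, 15 were tested, 9 called higher and 1 lower, where 22.9% of all genes were called higher.

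Drp2, the periaxin partner, was 0.41 and 0.36 RPKM in Het and 0.73 and 0.85 RPKM in Nf1-KO (log2 fold change 0.34, limma adjusted p 0.00563). Mal, a lipid raft protein of myelin, was 0.33 and 0.37 RPKM in Het and 0.8 and 0.72 RPKM in Nf1-KO (log2 fold change 0.35, limma adjusted p 0.00373). The ratios of group means were 2.05 for Drp2 and 2.17 for Mal.

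Genes of the list that many other cells also use were higher, lower or not called. Log2 fold changes were 0.34 for Litaf, 0.31 for Cd59a, 0.30 for Cd9 and 0.09 for Mpp6, all called higher, although Mpp6 lost its call without either Het library or the first Nf1-KO library (limma adjusted p 0.103 to 0.186). With no filter Cd9 (limma adjusted p 0.0758), Litaf (0.0592) and Mpp6 (0.0898) were not called. In the authors' deposited table Cd9 (adjusted p 0.059) and Mpp6 (0.266) were not called, while Litaf (0.0286) and Cd59a (0.000308) were called higher. Arhgef10 (0.13, limma adjusted p 0.0993), Cnp (-0.12, 0.189) and Mtmr2 (-0.06, 0.309) were not called. Tspan2, a tetraspanin, was 2.27 and 2.41 RPKM in Het and 1.59 and 1.74 RPKM in Nf1-KO and was the gene called lower (log2 fold change -0.39, limma adjusted p 0.00224). Exons of Cnp, Litaf, Cd9 and Tspan2 overlap those of genes on the opposite strand.

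Several further myelin genes were too low for the test. Mag, the axon-facing adhesion protein of myelin, was 0.04 and 0.09 RPKM in Het and 0.18 and 0.23 RPKM in Nf1-KO. The gap junction gene Gjc3 was 0.18 RPKM in both Het and 0.37 RPKM in both Nf1-KO libraries. Fa2h, which makes the hydroxylated fatty acids of myelin lipids, was 0.17 RPKM in both Het libraries and 0.33 and 0.3 RPKM in Nf1-KO. Ncmap was listed at 0 in all libraries.

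**Figure D3:**
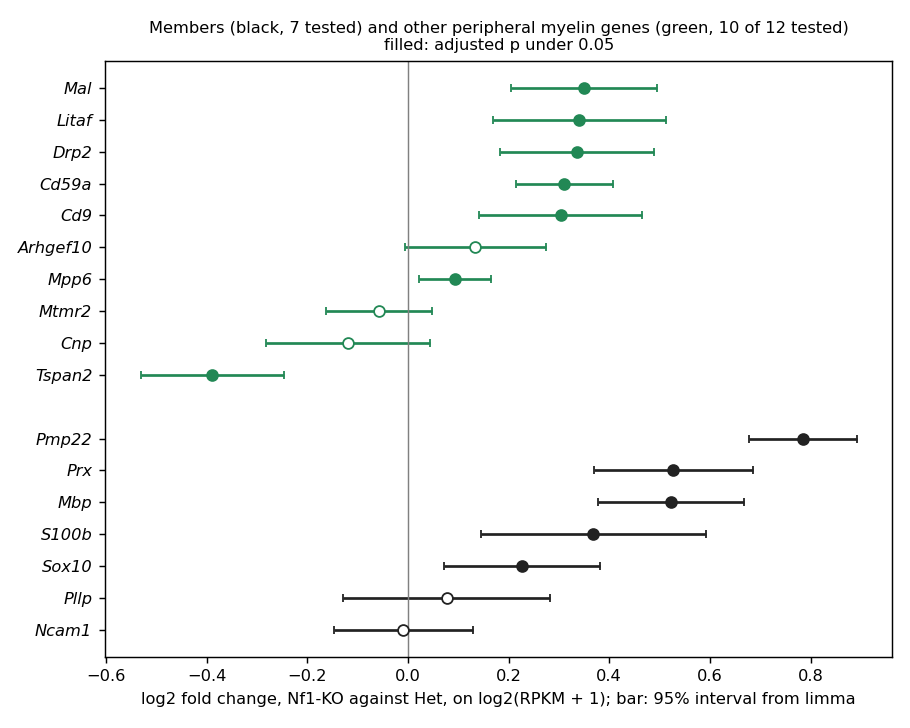
Log2 fold change of Nf1-KO against Het on log2(RPKM + 1) (horizontal axis) with its 95% interval from limma, for the 7 tested members (black) and 10 of the 12 other tested genes of peripheral myelin (green). Filled points have an adjusted p under 0.05. Pmp22 lies farthest to the right at 0.78, the intervals of Ncam1 and Pllp cross zero, and Tspan2 is the filled point to the left.

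With the filter of 0.5 RPKM in 2 libraries, the tested genes of the Schwann transcription factor list were called at the rate of all genes. Of 20 genes, 12 were tested, with 3 called higher and 3 lower, beside 24.9% and 25.4% of all tested genes, and the median log2 fold change was -0.02. Of the 3 called higher, Nab2 passed the filter only through Nf1-KO. With the filter on the mean, 15 were tested, 5 called higher and 3 lower, where 22.9% of all genes were called higher. Egr2, which drives myelin genes together with SOX10, was 0.11 and 0.24 RPKM in Het and 0.57 and 0.48 RPKM in Nf1-KO, under the filter, since only 1 library reached 0.5 RPKM. With the filter on the mean Egr2 was called higher (limma adjusted p 0.0119). In the authors' deposited table Egr2 had a log2 fold change of 1.41 with an adjusted p of 0.00745. Foxd3, also under the filter, was 0.21 RPKM in both Het libraries and 0.53 and 0.49 RPKM in Nf1-KO. With the filter on the mean Foxd3 was called higher (limma adjusted p 0.00664), as in the authors' deposited table (1.17, adjusted p 0.0357). Of the 20 genes, 10 had both Nf1-KO libraries above both Het libraries and 5 had both below. Among all named genes with any value, 37.5% had both above. Id2, an inhibitor of differentiation factors, was called higher (log2 fold change 0.42, limma adjusted p 0.00342). For Id2 the authors' deposited table gave 0.75 with an adjusted p of 0.0642, which is no call. The genes called lower were Jun, Wwtr1 and Tead1, with log2 fold changes of -0.55, -0.33 and -0.19. Muscle fibres and other cells use these 3 genes too, and Jun is known in injured nerve as the driver of the repair state. Tfap2a was listed at 0.

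Genes of nonmyelinating and repair Schwann cells gave 5 higher and 2 lower of 8 tested among 22, beside 24.9% and 25.4% of all tested genes. Of the 5, Scn7a and Bdnf passed the filter only through Nf1-KO. With the filter on the mean, 11 were tested, 7 called higher and 2 lower, where 22.9% of all genes were called higher. L1cam, 0.24 and 0.28 RPKM in Het and 0.46 and 0.47 RPKM in Nf1-KO, was among these 7 (limma adjusted p 0.0321). Of the 22, 12 had both Nf1-KO libraries above both Het libraries and 2 had both below. Among all named genes with any value, 37.5% had both above. The called genes with the smallest adjusted p are shared with other cells. They were Apod, a lipid carrier of endoneurial fibroblasts and of other connective tissue (6.2 and 6.57 RPKM in Het, 18.62 and 18.45 RPKM in Nf1-KO, log2 fold change 1.32, limma adjusted p 2.95e-06), and Cryab, a small heat shock protein abundant in muscle (0.32, limma adjusted p 3.24e-05). Ednrb and Nes were lower, by -0.40 and -0.34. Shh and Olig1 were listed at 0, and Gfap reached 0.01 RPKM in 1 library.

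Receptors, ligands and basal lamina genes that instruct Schwann cells were counted next. Of 23, 15 were tested, with 2 higher and 5 lower, beside 24.9% and 25.4% of all tested genes, and the median log2 fold change was -0.05. Erbb3, the neuregulin receptor of Schwann cells, was 1.29 and 1.45 RPKM in Het and 1.67 and 1.69 RPKM in Nf1-KO (log2 fold change 0.12, limma adjusted p 0.14). Its partner Erbb2 was 0.34 and 0.47 RPKM in Het and 0.66 and 0.59 RPKM in Nf1-KO (0.18, limma adjusted p 0.0753). With values as deposited, where more genes were called higher than lower, Erbb3 and Erbb2 passed (limma adjusted p 0.0453 and 0.0436). Erbb2 reached the filter only through the Nf1-KO libraries. In the authors' deposited table neither was called (adjusted p 0.477 for Erbb3 and 0.162 for Erbb2). The ligand gene Nrg1 was listed at 0.

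Among the neurotrophins, which NGFR binds, the genes went apart. Ntf5, neurotrophin 4, which muscle fibres make, was 4.05 and 3.83 RPKM in Het and 1.09 and 1.23 RPKM in Nf1-KO (log2 fold change -1.26, limma adjusted p 1.66e-05). Bdnf was 0.2 and 0.18 RPKM in Het and 0.56 and 0.59 RPKM in Nf1-KO (0.38, limma adjusted p 0.00211), and it passed the filter only through Nf1-KO. Ntf3 was not called (0.16, limma adjusted p 0.0837). Of the sortilin family, which pairs with NGFR, Sort1 was lower (-0.40) and Sorcs2 higher (0.27, limma adjusted p 0.0392), although Sorcs2 also passed the filter only through Nf1-KO and lost its call without the second Het library or either Nf1-KO library (limma adjusted p 0.0972 to 0.113).

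The laminin chains and receptors of the Schwann cell basal lamina, which periaxin connects to, were lower or not called. Lamc1, Itga6 and Lamb2 were called lower, with log2 fold changes of -0.42, -0.50 and -0.22, while Dag1 (-0.06), Lama2 (0.03), Lama4 (-0.09), Lamb1 (-0.04) and Itgb4 (-0.05) were not called. The signs of Dag1 and Lamb1 turned with values as deposited. Muscle fibres and vessels also make these proteins.

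Axon and motor neuron transcripts were scarce, with sums of 1.4 to 1.68 RPKM in Het and 3.1 to 3.33 RPKM in Nf1-KO. Of these 16 genes, 7 were listed at 0, including Chat, Isl1 and Mnx1, and 2 were tested. Uchl1, a neuronal deubiquitinase, was 0.82 and 0.92 RPKM in Het and 1.76 and 2.25 RPKM in Nf1-KO (log2 fold change 0.63, limma adjusted p 0.00165). Uchl1 makes up most of the sum in each library, and its exons overlap those of Uchl1os on the opposite strand. Stmn2, a microtubule regulator of growing axons, was 0.24 and 0.26 RPKM in Het and 0.74 and 0.6 RPKM in Nf1-KO (0.39, limma adjusted p 0.00356), and it passed the filter only through Nf1-KO. Of the 5 genes of the perineurium, the cell layer around a nerve bundle, 3 were tested, and Slc2a1 was called higher (0.26, limma adjusted p 0.0249). Slc2a1 lost this call without the first Het or the first Nf1-KO library. With no filter Slc2a1 was not called (limma adjusted p 0.109), nor was it in the authors' deposited table (adjusted p 0.113). Lypd2 of the same list, too low for the test, was 0.28 RPKM in both Het libraries and 0 in both Nf1-KO libraries. With no filter Lypd2 was called lower (log2 fold change -0.37, limma adjusted p 0.0018). Beside the counts of both lists, 24.9% of all tested genes were called higher.

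Marker lists of other cells in which members are expressed gave the setting of these values. Central myelin was near 0: Mobp, Opalin, Olig1, Olig2 and Myrf were listed at 0 and Mog reached 0.03 RPKM. Melanocytes, which also use SOX10, had Tyr and Tyrp1 listed at 0 in all libraries. The 2 tested genes of that list, Kit and Mitf, were lower (-0.52 and -0.22). Dct, too low for the test, was 0.02 and 0.03 RPKM in Het and 0.1 and 0.07 RPKM in Nf1-KO. In the authors' deposited table Dct was not called (adjusted p 0.304). Mitf lost its call without the first Het library (limma adjusted p 0.0519) or the second Nf1-KO library (0.0628). The partners of NCAM1 and other adhesion genes gave 1 higher (Fgfr1, 0.31) and 1 lower (Prnp, -0.41) of 6 tested among 12. Beside the counts of these lists, 24.9% of all tested genes were called higher and 25.4% lower.

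Synaptic and denervation genes of the muscle fibre are the setting in which Ncam1 is also used. Of 20, 17 were tested, 8 were higher and 2 lower, beside 24.9% and 25.4% of all tested genes. Chrna1, the acetylcholine receptor alpha chain, was 2.79 and 2.75 RPKM in Het and 8.17 and 8.21 RPKM in Nf1-KO (log2 fold change 1.21, limma adjusted p 5e-06). Myog rose by 1.44 on the log2 scale, and Ache fell by 0.73. The row of Myh8 used here fell by 0.51, but the rows of that name disagree in direction. Satellite cell genes gave 4 higher and 1 lower of 10 tested among 13, with Itga7 at 0.52, Hey1 at 0.35, Vcam1 at 0.18 and Heyl at -0.16; Vcam1 and Heyl lost their calls without any 1 library.

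Markers of blood-derived and connective tissue cells were called in 1 direction for immune and adipocyte genes and in both for fibroblast and endothelial genes, where 24.9% of all tested genes were higher and 25.4% lower. The 10 immune genes summed to 12.9 to 13.2 RPKM in Het and 36.2 to 37.0 RPKM in Nf1-KO, and 6 of 6 tested were higher, with Lyz2 at 1.51, Tyrobp at 0.92, Fcer1g at 0.71 and Csf1r at 0.53; Adgre1 was listed at 0. The 9 fibroblast genes, relevant to Pmp22, summed to 121.6 to 125.9 RPKM in Het and 145.6 to 147.3 RPKM in Nf1-KO, with 5 of 9 tested higher (among them Ly6a, 0.53, Col3a1, 0.42, and Lum, 0.38) and 2 lower (among them Cd34, -0.62); their median log2 fold change was 0.10. The 8 adipocyte genes, relevant to S100b, summed to 180.0 to 186.9 RPKM in Het and 268.6 to 270.7 RPKM in Nf1-KO. Most of this sum is Fabp4, at 170.6 and 176.3 RPKM in Het and 249.4 and 246.8 RPKM in Nf1-KO. Of 5 tested, 3 were higher (Cfd, 1.25, Fabp4, 0.42, and Cidec, 0.35), while Adipoq was 1.11 and 1.31 RPKM in Het and 0.95 and 1.05 RPKM in Nf1-KO. Lep, too low for the test, was 0.21 and 0.22 RPKM in Het and 0.03 and 0.05 RPKM in Nf1-KO, and Plin1 was 0.41 and 0.34 RPKM in Het and 0.35 RPKM in both Nf1-KO libraries. The 10 endothelial genes summed to 107.7 to 109.1 RPKM in Het and 121.6 to 124.1 RPKM in Nf1-KO, with 5 of 10 tested higher (among them Flt1, 0.37, and Egfl7, 0.34) and 2 lower (among them Kdr, -0.25); their median was 0.04. By comparison the 8 members summed to 8.87 to 9.41 RPKM in Het and 17.1 to 17.2 RPKM in Nf1-KO. Most of this member sum is Pmp22, at 5.2 and 5.55 RPKM in Het and 10.53 and 10.72 RPKM in Nf1-KO. The part of the other cell types in the result was not tested. The values are scaled to library depth. In whole muscle, more Schwann cells, more RNA of the member genes per cell and less RNA from muscle fibres cannot be told apart.

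**Figure D4:**
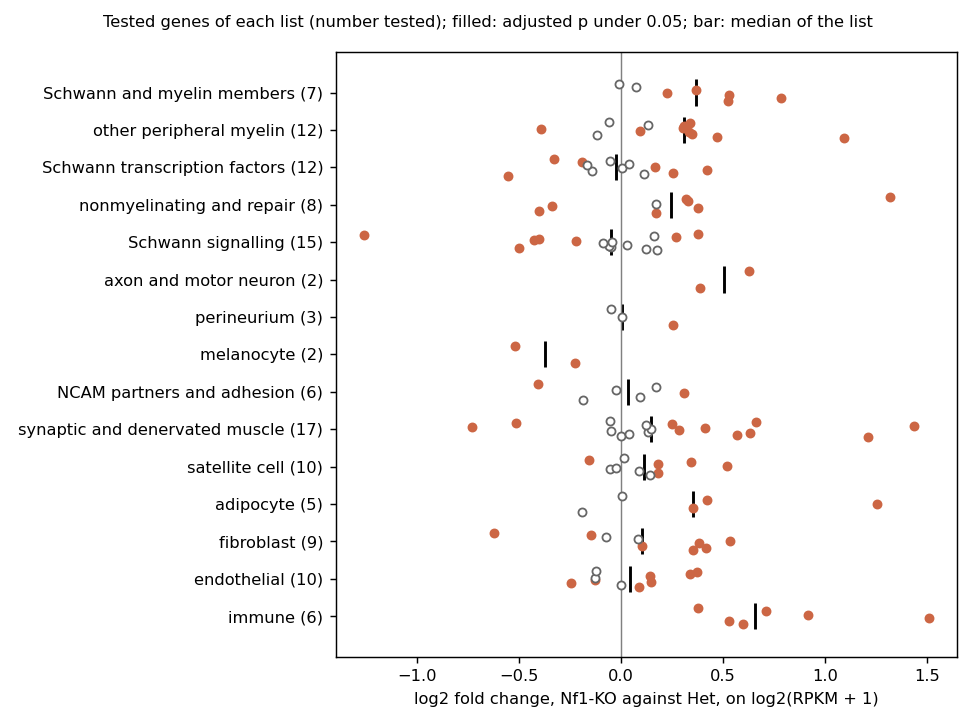
Log2 fold change of Nf1-KO against Het on log2(RPKM + 1) (horizontal axis) for every tested gene of each list (vertical axis, with the number tested). Filled points have an adjusted p under 0.05 and bars are list medians. Other peripheral myelin genes have a median of 0.31 and immune genes of 0.66, and Schwann signalling genes and transcription factors have medians of -0.05 and -0.02.

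The 5 genes outside all lists whose profile over the 4 libraries lay closest to the median profile of the tested members were Phax, Gramd1a, Mfap2, Man2c1 and Gm16378. Likeness was the Euclidean distance of mean-centred log2 values among 8966 genes with a mean of at least 1 RPKM, and it ran from 0.0513 to 0.0559. Over only 4 libraries such closeness describes the size of the shift between genotypes, and their log2 fold changes were 0.33 to 0.38.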

How the data were processed

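STAR 2.4.2a, DESeq2 and build mm9 are named, with no role, per the submitters' processing notes. The authors deposited 1 value per gene and library, taken from the values to be RPKM because no header names the unit. Per the file headers, the authors' deposited comparison table has the layout of DESeq2 output: a mean normalized count (signal), a log2 fold change, a test score, and a p-value with its adjusted value; its direction was read from the libraries.

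Of 34682 rows, 33 named by a number were left out, and where a name had further copies (1781 rows) the copy with the highest mean was used. Libraries were scaled by trimmed means of log ratios without weights (30% and 5% trimmed; factors 0.969, 0.967, 1.03 and 1.03). Genes with at least 0.5 RPKM in 2 libraries were tested with limma 3.58.1 in R 4.3.3, with a variance trend, on log2(RPKM + 1). P-values were two-sided and adjusted by Benjamini-Hochberg over all 10690 genes tested, with a threshold of 0.05. The fit was tested on simulated data. Means and ratios of means are of values as deposited. Members and lists were chosen with earlier results of these data known. From each list the text names up to 4 called genes with the smallest adjusted p, and the tested genes of the peripheral myelin and Schwann signalling lists, of which some are not reported here by name but are counted; Egr2, Nab2, Scn7a, Mag, Gjc3, Fa2h, Adipoq, Lep, Plin1 and Gfap were named after their values were seen. Same-numbered libraries did not deviate together (correlation -0.0179 across genes), so no pairing was used.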

Additional observations from a re-analysis of the deposited data

How the results depend on the processing

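Under 15 alternatives, 1 of them (the filter on the mean of at least 0.25 RPKM) chosen after seeing the data, Pmp22 kept its direction and call in all 15, and Mbp and Prx in the 14 that tested them (both fall under the filter of 1 RPKM in every library). Their log2 fold changes ran from 0.74 to 0.88 for Pmp22, 0.48 to 0.86 for Mbp and 0.47 to 0.87 for Prx. The limma adjusted p ran from 0.0173 to 0.106 for Sox10 and from 0.00621 to 0.0857 for S100b. The number of members called higher went from 5 to 3 with no filter, to 1 with the filter of 1 RPKM, where fewer are tested, and to 3 at an adjusted p under 0.01. It was 3 to 4 when a library was left out. Over all related lists the 52 genes called higher became 32 with the filter of 1 RPKM, with fewer genes tested. All genes called higher were 2113 to 2211 without 1 library.

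Signs turned only near 0: with values as deposited Ncam1 was 0.0236, Mtmr2 0.0229, Dag1 0.0346 and Lamb1 0.0229. When a library was left out, Ncam1 was 0.0058 without the second Het and 0.0089 without the first Nf1-KO library, Pllp ran from -0.0264 without the first to 0.1803 without the second Het library, and Lama2 from -0.0043 without the first to 0.069 without the second Nf1-KO library. The cause was not tested.

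With the replicate number as a block, 5 members were called higher and 0 lower, and 2593 of all genes were higher and 2636 lower. Nf1 lost its call there (-0.18, limma adjusted p 0.0559), as did Mpp6 (0.0574), Vcam1 (0.0523) and Heyl (0.0661). The replicate numbers are only shared names, since same-numbered libraries did not deviate together (correlation -0.0179). Depth limits Sox10, S100b, Pllp and Ngfr most, with mean normalized counts of 41.4 to 65.2 in the authors' deposited table.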
